A study of Mus musculus with 18 samples.

Results

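The 45 genes described here serve DNA replication and S phase, the part of the cell cycle in which the genome is copied. Members were chosen by name: a row of the 4 deposited expression tables belongs to the set where its gene name is a member or a joined name that holds it, and the row with the highest mean was kept for each name. All 45 members were found in each table, among 23210 names present in all 4. RNA was sequenced from mice at postnatal day 0 in 18 libraries, and each table compares control with conditional knockout (cKO). In *Kdm2b* cKO mice, labelled Kdm2b Emx1-∆CxxC, Cre from *Emx1*, which is active in progenitors of the dorsal telencephalon, removes the DNA-binding CxxC zinc finger of KDM2B from floxed alleles, and their controls are Kdm2b fl/+ or fl/fl. Hippocampi of 3 control and 3 cKO samples, hippocampal neurospheres of 2 and 2, and cortices of 2 and 2 were compared. *Rnf2* cKO hippocampi, in which the same Cre deletes floxed *Rnf2* (encoding RING1B), numbered 2 against 2 controls of Rnf2 fl/+ or fl/fl. Tissue samples therefore also hold cells outside the *Emx1* lineage, and neurospheres are floating cultures of progenitors from newborn hippocampi, grown with FGF2 and EGF and passaged before RNA was taken. The labels do not say whether replicates came from separate litters or cultures, so p values measure only the spread between these samples, which may be technical.

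Replication starts where the origin recognition complex, CDC6 and CDT1 load the MCM2-7 ring onto DNA in G1. CDC45, the GINS complex and MCM10 then turn the ring into an active helicase, and primase, the DNA polymerases, the sliding clamp PCNA with its loader RFC, and the single-strand binding complex RPA copy the strands. Transcription of most of these genes rises at the G1/S transition under E2F factors, which makes their mRNA a common measure of how many cells of a sample cycle. In the newborn brain the hippocampus still holds dividing progenitors, above all in the forming dentate gyrus, while most cortical neurons have been born.

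In *Kdm2b* cKO neurospheres the members rose together, with 44 of 45 called higher (11.4% of all genes tested) and a median of 2.14 times the control mean. In *Kdm2b* cKO hippocampi, the tissue of the same region, none was called, although 38 of 45 had a positive change with a median of 0.13 on the log2 scale. None was called in *Kdm2b* cKO cortices. In *Rnf2* cKO hippocampi a single member of 44 tested, *Rfc4*, was called lower, and 1.85% of all genes tested there were called lower. Levels are in FPKM (fragments per kilobase, a level corrected for gene length and for the mapped fragments of each library). Changes are differences, cKO minus control, of mean log2(FPKM + 1), and on that scale weakly expressed genes appear to change less than they do. A gene with a mean of at least 0.5 FPKM was tested with limma within its table and called at a change above 0.4 in size with an unadjusted p under 0.05. In bulk RNA, fewer cells of a type and less RNA per cell cannot be told apart.

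The targeted genes do not check the labels, since values cover whole genes and not the deleted parts. *Kdm2b* stood at 28.1 to 31.9 FPKM in control and 26.2 to 28.2 FPKM in cKO hippocampi, at 21.9 to 22.2 and 22.5 to 23.7 FPKM in neurospheres, and at 15.7 to 16.9 and 14.7 to 14.9 FPKM in cortices. *Rnf2* stood at 30.8 to 32.3 FPKM in control and 27.8 to 28.5 FPKM in *Rnf2* cKO hippocampi. None of these differences passed the call. The mapped fragments of each library are not known for the *Kdm2b* hippocampi and neurospheres, and the paper states only a general sequencing depth. Fragments on genes numbered 18480518 to 21905235 in cortices and 14654895 to 16334423 in *Rnf2* hippocampi. One neurosphere library, control 1, stands apart: entries that name no gene hold 29.3% of its FPKM, against 0.876% to 1.95% in the other 3. *Xist*, an RNA of the inactive X chromosome in females, was at 154 FPKM in cKO hippocampus 1 and at most 0.0732 FPKM in the other 5 hippocampi of that table, and at 0.361 FPKM in cKO neurosphere 1 and 140.0 to 175 FPKM in the other 3. In cortices *Xist* was at 0.0177 FPKM in control 1 and 132 to 189 FPKM in the other 3, and in *Rnf2* hippocampi at 71.0 to 122 FPKM in all 4. By *Xist*, sex was not balanced between control and cKO in *Kdm2b* hippocampi, neurospheres or cortices. The part of sex in the changes was not tested. All 8 hippocampal identity markers passed the filter on low values in both sets of hippocampi and 7 in neurospheres, where *Wnt8b* was at 0, and all 8 neocortical markers passed in cortices. All 8 neocortical markers also passed in both sets of hippocampi and 6 in neurospheres, and 6 hippocampal markers passed in cortices. These counts therefore do not tell the tissues apart. Progenitor markers summed to 4171 to 7381 FPKM in neurospheres and 570.4 to 1302 FPKM in tissues, a comparison across tables normalized separately.

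**Figure D1:**
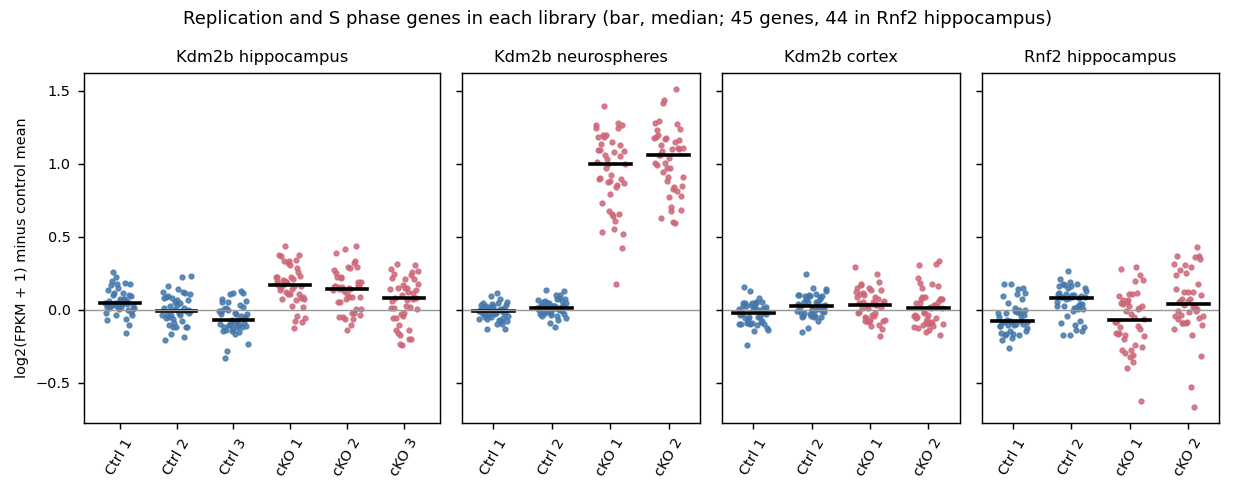
Each point is 1 member in 1 library, plotted as log2(FPKM + 1) minus the mean of that table's controls, and the black bar is the median over members. Both cKO neurosphere libraries lie near 1, at medians of 0.99 and 1.06, while every tissue library has a median between -0.080 and 0.17.

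The members' summed level was 888 and 896 FPKM in control neurospheres and 1767 and 1888 FPKM in cKO neurospheres. Called higher were 44 of 45 members (11.4% of all 12227 genes tested), and 43 of them also had an adjusted p under 0.05 (9.13% of all genes). That adjusted count was 27 without control 1, 30 without control 2 and 36 with libraries rescaled to equal FPKM totals. The median change was 1.00 on the log2 scale, against -0.011 over all genes tested. Every member had both cKO values above both control values, as 32.1% of all genes had. Ratios of group means ran from 1.33 to 2.98, and 28 members reached at least 2. Changes were alike across low and high members, with a Spearman rho of -0.033 between change and control level over 45 genes of the same 4 libraries.

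Among the origin licensing genes, *Cdt1*, which loads the MCM ring with CDC6, had 9.86 and 12.1 FPKM in controls and 30.5 and 30.8 FPKM in cKO neurospheres, the largest change of the set (1.41 ± 0.11, SE, adjusted p = 0.00183). *Cdc6* rose by 1.16 on the log2 scale. *Orc1*, the largest subunit of the origin recognition complex, had 1.70 and 2.24 FPKM in controls and 2.96 and 3.74 FPKM in cKO neurospheres, and its change of 0.55 ± 0.17 passed the unadjusted test alone (adjusted p = 0.0646). *Orc1* lost its call without control 1 and without cKO 2, with a change of 0.42 in either case. *Orc6*, the smallest subunit, rose by 0.65.

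All 6 genes of the MCM2-7 ring, the core of the replicative helicase, were called higher, and their changes lay close together, between 0.94 (*Mcm7*) and 1.27 (*Mcm3*). *Mcm2* had 26.2 and 26.6 FPKM in controls and 64.0 and 61.0 FPKM in cKO neurospheres (1.21 ± 0.078, adjusted p = 0.00130). *Mcm5* had 23.4 and 23.2 FPKM in controls and 50.8 and 54.1 FPKM in cKO neurospheres (1.14 ± 0.079, adjusted p = 0.00152). In both genes the distance between the groups is larger than the spread within either. That spread was wider in cKO (SD of 2.17 and 2.30 FPKM) than in control neurospheres (0.33 and 0.14 FPKM). Summed over the ring, levels were 189 and 192 FPKM in controls and 415 and 424 FPKM in cKO neurospheres.

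E2F factors are known regulators of the MCM genes, so the promoters of members were searched for letters that E2F factors prefer. RefSeq promoters (GRCm38.p6, 250 bases before to 50 after the gene start) were found for 37 of the 45 members, all but *Ccne2*, *Exo1*, *Gins1*, *Gins2*, *Mcm4*, *Pole*, *Prim2* and *Rfc2*. The RefSeq start lay from 0 (for example *Mcm3*) to 539 bases (*Mcm7*) from the 5′ end of the gene as deposited, with 466 for *E2f1* and 121 for *Blm*. Matches and their positions depend on the start used. The search took the octamers TTTCCCGC, TTTCGCGC, TTTGCCGC and TTTGGCGC on either strand. Of these 37 promoters, 12 held at least 1 match (32.4%), against 2.63% of 20477 promoters and 4.28% of the 9671 promoters of genes tested in neurospheres. Where promoters of tested genes had at least as many CpG dinucleotides as the median member, 5.76% of 4164 held a match. 2 or more matches stood in 5 members and in 24 of all promoters. To show where the matches lie, the promoter of *Mcm6*, with the most matches, those of *Mcm3* and *Mcm5*, with 2 each, and, for contrast, those of *Blm* and *Ccne1*, which hold none and whose mRNA was also called higher, are given. Capitals mark the matches, and each sequence reads 5′ to 3′ on the strand of its gene.
Mcm6 (chr1:128359656-128359955, minus strand): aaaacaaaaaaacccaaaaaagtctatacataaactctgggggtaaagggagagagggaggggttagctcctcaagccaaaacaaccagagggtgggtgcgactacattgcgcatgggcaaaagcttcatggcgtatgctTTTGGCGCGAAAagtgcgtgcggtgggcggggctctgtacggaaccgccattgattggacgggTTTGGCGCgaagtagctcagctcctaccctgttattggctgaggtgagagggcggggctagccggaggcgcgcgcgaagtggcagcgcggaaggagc
Mcm3 (chr1:20820263-20820562, minus strand): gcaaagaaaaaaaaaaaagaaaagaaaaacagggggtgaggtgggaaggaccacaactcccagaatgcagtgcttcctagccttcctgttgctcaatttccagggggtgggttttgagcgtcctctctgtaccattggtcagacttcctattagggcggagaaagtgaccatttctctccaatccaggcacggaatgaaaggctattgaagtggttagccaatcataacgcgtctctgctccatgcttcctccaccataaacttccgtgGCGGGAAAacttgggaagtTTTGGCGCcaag
Mcm5 (chr8:75109259-75109558, plus strand): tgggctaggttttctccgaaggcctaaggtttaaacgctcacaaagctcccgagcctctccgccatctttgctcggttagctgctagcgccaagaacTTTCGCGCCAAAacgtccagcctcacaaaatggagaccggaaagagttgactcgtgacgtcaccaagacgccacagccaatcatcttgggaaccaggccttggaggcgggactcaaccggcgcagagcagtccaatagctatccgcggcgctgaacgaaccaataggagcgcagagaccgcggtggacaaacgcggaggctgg
Blm (chr7:80534949-80535248, minus strand): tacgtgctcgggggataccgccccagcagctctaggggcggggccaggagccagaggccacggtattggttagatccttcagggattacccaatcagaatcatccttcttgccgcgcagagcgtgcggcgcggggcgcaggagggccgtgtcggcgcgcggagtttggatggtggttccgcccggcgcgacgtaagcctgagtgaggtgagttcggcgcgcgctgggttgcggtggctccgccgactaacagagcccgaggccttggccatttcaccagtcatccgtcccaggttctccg
Ccne1 (chr7:38107441-38107740, minus strand): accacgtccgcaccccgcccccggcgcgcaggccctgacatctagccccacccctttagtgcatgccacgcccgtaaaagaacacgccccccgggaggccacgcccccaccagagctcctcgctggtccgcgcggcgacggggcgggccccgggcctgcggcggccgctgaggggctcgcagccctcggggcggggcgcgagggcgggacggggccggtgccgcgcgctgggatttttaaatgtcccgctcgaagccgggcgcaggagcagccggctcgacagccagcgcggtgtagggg

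In *Mcm6* the matches begin at -110, -106 and -47, counted from 0 at the gene start, and in *Mcm5* at -153 and -149, so that the upstream pair of each overlaps, being read on opposite strands. In *Mcm3* they begin at 19 and 38, inside the transcribed part. Over members, 11 of 18 matches began from 100 bases upstream to the end of the window, and 1 of the 18 overlaps a match to another motif searched. The change in neurospheres was alike with and without a match, with medians of 0.96 (0.55 to 1.41) and 1.00 (0.39 to 1.39). The CCAAT box of NF-Y, searched on both strands, stood in 64.9% of the members' promoters and 38.2% of all promoters. The cell cycle homology region (CHR), searched as TTTGAA on both strands, stood in 10.8% of the members' promoters, in 16.8% of all promoters and in 72.7% of the 22 promoters found for a list of mitotic genes, of which 4.55% held an E2F octamer. A match is a count of letters and does not show that a factor binds, and a window without one says nothing of a factor.

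**Figure D2:**
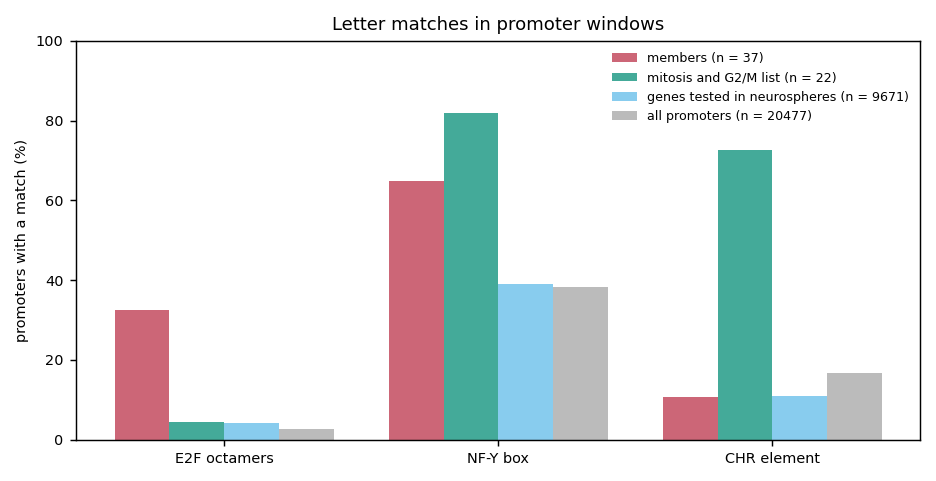
Bars give the percentage of promoter windows with at least 1 match to the E2F octamers, the NF-Y box or the CHR element, in the members, a mitotic list, all genes tested in neurospheres and all promoters. The E2F bar of the members stands at 32.4% beside 4.55%, 4.28% and 2.63%, and the CHR bar of the mitotic list at 72.7% beside 10.8% for the members.

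Genes that fire the loaded ring rose as well. *Gins1* (1.21), *Mcm10* (1.15) and *Cdc45* (1.13) rose by more than the median member and *Gins2* (0.89) by less, while *Gins3*, a further subunit of the GINS complex, had 1.76 and 1.79 FPKM in controls and 3.01 and 3.29 FPKM in cKO neurospheres (0.58 ± 0.13, adjusted p = 0.0306). All 6 polymerase and primase genes were called higher, from 0.78 (*Pola2*, of the polymerase alpha complex) to 1.06 (*Pole*, the catalytic subunit of the leading-strand polymerase). *Fen1* and *Lig1*, which trim and seal Okazaki fragments, rose by 1.10 and 1.08.

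*Pcna*, the sliding clamp, was the most abundant member in every table. It had 156 and 147 FPKM in control and 284 and 316 FPKM in cKO neurospheres (0.98 ± 0.11, adjusted p = 0.00334), in an entry that also names *Tmem230*. The clamp loader genes *Rfc2*, *Rfc3* and *Rfc5* rose by 0.66 to 0.69, and *Rfc4* rose by 1.09. The RPA genes changed least as a group, with a median of 0.60. *Rpa3*, the smallest RPA subunit, was the one member not called, with 27.7 and 27.9 FPKM in controls and 31.6 and 42.4 FPKM in cKO neurospheres (0.39 ± 0.14, adjusted p = 0.107). The 2 cKO values of *Rpa3* lie far apart, and without cKO 1 its change was 0.59 and was called.

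*Rrm2*, the S phase subunit of ribonucleotide reductase, which makes deoxynucleotides, had 50.7 and 52.3 FPKM in controls and 119 and 141 FPKM in cKO neurospheres (1.32 ± 0.11, adjusted p = 0.00185). *Rrm1*, the other subunit, rose by 1.00, read from an entry that also names *Olfr543*, and *Tyms*, thymidylate synthase, rose by 0.99. *Chaf1b*, a subunit of the chromatin assembly factor CAF-1 that deposits histones behind the fork, had 10.2 and 11.5 FPKM in controls and 27.6 and 32.6 FPKM in cKO neurospheres (1.39 ± 0.11, adjusted p = 0.00187). *Uhrf1*, which guides maintenance DNA methylation, rose by 1.26, *Chaf1a* by 1.00 and *Slbp*, the binding protein of histone mRNA stem-loops, by 0.74. The checkpoint and repair genes *Exo1*, *Ung*, *Blm* and *Clspn* rose by 0.86 to 1.10.

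Regulators of S phase entry moved with the machinery. *E2f1* had 6.48 and 7.12 FPKM in control and 16.1 and 15.8 FPKM in cKO neurospheres (1.12 ± 0.093, adjusted p = 0.00191). *Ccne1*, a cyclin that activates CDK2 at the G1/S transition, had 4.99 and 4.92 FPKM in controls and 10.04 and 12.3 FPKM in cKO neurospheres (1.03 ± 0.12, adjusted p = 0.00441). *Ccne2*, the other E-type cyclin, had the largest ratio of means, 2.98. The groups of all 3 genes stood apart by more than the spread within either.

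**Figure D3:**
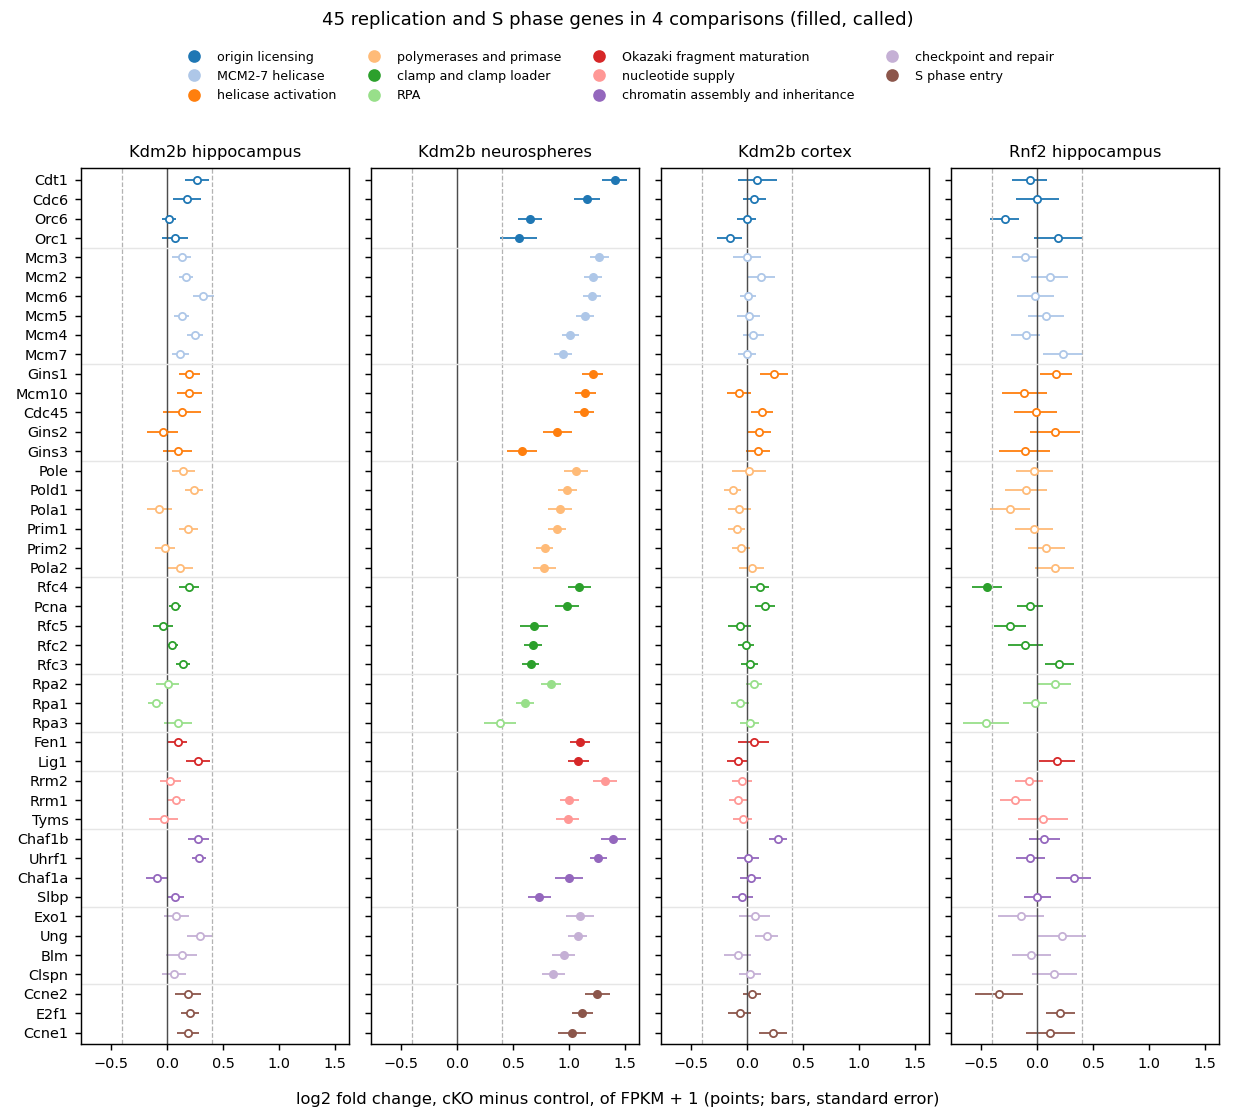
Each row is a member, ordered by role and by its change in neurospheres, and each panel a comparison. Points are log2 fold changes with standard errors, filled where called, and dashed lines mark 0.4 on either side of 0. The neurosphere panel has 44 filled points, the *Rnf2* panel has 1 (*Rfc4*), and the other panels have none.

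Beyond the members, lists of related genes rose in the same neurospheres. The lists were written with earlier results of these data known, so their counts are a description and not independent support. Of 30 further fork and origin genes 21 were called higher and none lower (median 0.53), led by *Topbp1* (1.08), a checkpoint activator, *Pole2* (1.22), *Dbf4* (0.85), the activating subunit of the CDC7 kinase, and *Tipin* (1.01). In the list of E2F and RB family genes and S phase kinases 8 of 14 were called higher, among them *Ccna2* (1.13), *Cdk2* (0.92), *E2f8* (0.99) and *E2f2* (0.99). Further nucleotide supply genes were called higher in 7 of 12, with *Dut* (1.20), *Tk1* (0.96) and *Dck* (0.67). Among replication-coupled chromatin and repair genes 12 of 14 were called higher, among them *Hells* (1.08), *Dnmt1* (0.93), *Nasp* (0.92) and *Mms22l* (1.05). All 25 genes of the mitosis and G2/M list were called higher (median 0.97), for example *Top2a* (1.19), *Ccnb1* (1.12), *Nuf2* (1.04) and *Kif11* (1.04). None of the genes of these 5 lists was called lower (1620 of all 12227 genes tested were).

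Markers of glial cells moved in the opposite direction in the same libraries. Of all 12227 genes tested, 1620 were called lower. All 8 astrocyte markers were called lower, with a median of -2.17 and summed levels of 439 to 459 FPKM in controls and 128 to 132 FPKM in cKO neurospheres. Of 8 markers of the oligodendrocyte lineage 6 were called lower (median -1.45), among them *Gpr17* (-3.99), while *Olig1* and *Olig2* hold most of the summed level, which was 2533 to 2585 and 2460 to 2523 FPKM. Of 9 progenitor markers tested, *Nes* and *Vim* were called higher and *Hes1* and *Hes5* lower. Of 7 neuron markers tested, 3 were called lower and 1 higher, with sums of 275 to 285 FPKM in controls and 220 to 246 FPKM in cKO neurospheres. *Aif1*, *Fcrls* and *Trem2* of the microglia list were at 0 in all 4 libraries. The part of these cell types in the members' rise was not tested. The count stood at 44 of 45 with libraries rescaled to equal FPKM totals or by median ratios, and at 43 of 45 with a median of 1.02 without control 1.

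**Figure D4:**
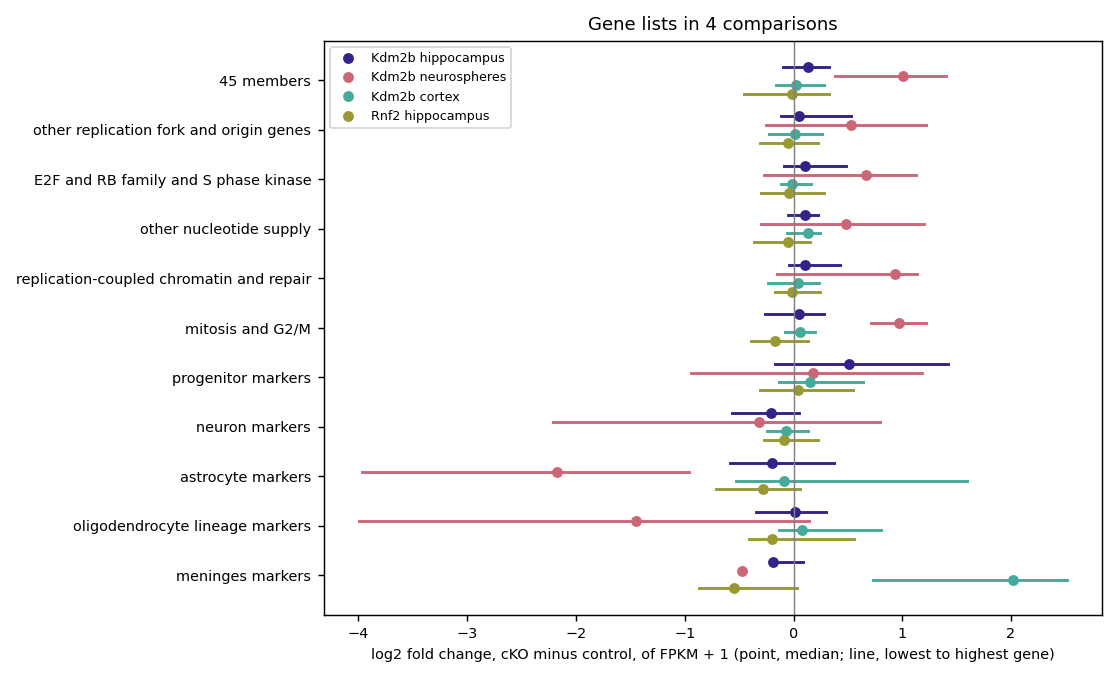
Points are the median log2 fold change of each gene list in the 4 comparisons, and lines run from the lowest to the highest tested gene of the list. In neurospheres the members (median 1.00) and the mitosis list (0.97) lie wholly above 0, and the astrocyte markers (-2.17) wholly below.

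In *Kdm2b* cKO hippocampi none of the 45 members was called, higher or lower (3.89% and 2.25% of 13446 genes). With no fold change threshold 12 members had an unadjusted p under 0.05, each of them higher (11.4% of all genes), (11.5% were lower by that rule), and *Uhrf1* was the only member with an adjusted p under 0.05, again with no fold change threshold (4.28% of all genes were higher). The 12 fell to 5 without control 2, cKO 1 or cKO 2 and to 6 without control 3. *Uhrf1* had an adjusted p of 0.045 without cKO 3, and of 0.069 to 0.115 without any other single library. The median change was 0.13, against 0.0084 over all genes. It lay between 0.12 and 0.15 under both other scalings, at 0.080 without control 3, and between 0.095 and 0.17 without any other single library. In 11 members every cKO value exceeded every control value (14.9% of all genes) and in none below (14.3%). Members' medians against the control mean were 0.042, -0.0062 and -0.069 in the controls and 0.17, 0.14 and 0.080 in the cKO libraries. The groups of library medians do not overlap, but the gap between the nearest control and cKO libraries (0.042 and 0.080) is smaller than the spread within the controls.

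*Mcm6*, of the MCM2-7 ring, *Uhrf1* and *Ung* had the 3 highest changes. *Mcm6* had 21.5, 16.7 and 20.6 FPKM in controls and 25.5, 25.8 and 22.7 FPKM in cKO hippocampi (0.32 ± 0.093, adjusted p = 0.0638). *Uhrf1* had 9.97, 9.78 and 9.37 FPKM in controls and 11.8, 12.5 and 11.8 FPKM in cKO hippocampi (0.29 ± 0.065, adjusted p = 0.0290). In neither gene do the groups overlap, and both changes are smaller than 0.4. *Ung*, a glycosylase that removes uracil from DNA, had 4.52, 4.91 and 5.42 FPKM in controls and 6.71, 7.02 and 5.24 FPKM in cKO hippocampi (0.29 ± 0.11, adjusted p = 0.157). Its cKO library 3 falls among the controls, and without that library *Ung* was the 1 member called higher (0.41).

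*Mcm2* had 11.9, 11.2 and 11.4 FPKM in control and 13.6, 12.7 and 12.8 FPKM in cKO hippocampi (0.17 ± 0.063, adjusted p = 0.146). *Mcm5* had 9.01, 8.99 and 8.69 FPKM in controls and 10.2, 10.1 and 9.31 FPKM in cKO hippocampi (0.13 ± 0.069, adjusted p = 0.298). For both, the groups do not overlap, yet the difference did not pass the adjusted test. *E2f1*, whose entry also names *Necab3*, had 14.5, 12.3 and 13.7 FPKM in controls and 16.0, 16.7 and 14.3 FPKM in cKO hippocampi (0.20 ± 0.081, adjusted p = 0.173), and the groups overlap. *Ccne1* had 4.13, 3.19 and 3.38 FPKM in controls and 4.09, 4.19 and 4.27 FPKM in cKO hippocampi (0.19 ± 0.10, adjusted p = 0.319).

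*Pcna* and *Rrm2* differed least between hippocampi among the genes followed in every table. *Pcna* had 67.2, 64.0 and 65.6 FPKM in controls and 73.2, 68.1 and 66.1 FPKM in cKO hippocampi (0.073 ± 0.051, adjusted p = 0.442). *Rrm2* had 17.0, 17.6 and 15.3 FPKM in controls and 18.2, 18.4 and 14.6 FPKM in cKO hippocampi (0.029 ± 0.093, adjusted p = 0.897). Groups overlap in both genes. The lowest changes of the set were those of *Rpa1* (-0.10 ± 0.066), the large subunit of RPA, with 24.4, 23.0 and 22.0 FPKM in controls and 21.9, 22.7 and 20.0 FPKM in cKO hippocampi, of *Chaf1a* (-0.091 ± 0.097), with 6.26, 7.81 and 7.29 against 6.86, 6.95 and 6.03 FPKM, and of *Pola1* (-0.068 ± 0.11), the X-linked catalytic subunit of polymerase alpha, with 2.65, 2.73 and 2.42 against 2.87, 2.44 and 2.05 FPKM. None of the 3 passed the test, and their groups overlap.

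Few of the related genes were called in hippocampi. *Pold4* (0.53), a subunit of polymerase delta, and *Dna2* (0.45), a nuclease of Okazaki fragment processing, were called higher among 30 further fork and origin genes, *Cdk2* (0.49) among 14 E2F, RB and kinase genes, and *Cdca7* (0.42), a chromatin factor, among 14 chromatin and repair genes. None of 12 further nucleotide supply genes and none of 25 mitosis and G2/M genes was called. The median of the mitosis list was 0.046. Marker lists moved in the same libraries: 6 of 10 progenitor markers were called higher, with sums of 1122 to 1201 FPKM in controls and 1183 to 1302 FPKM in cKO hippocampi, and 4 of 8 microglia markers, with sums of 39.3 to 46.3 and 50.02 to 64.2 FPKM. Neuron markers summed to 2467 to 2532 FPKM in controls and 1972 to 2244 FPKM in cKO hippocampi, with 1 of 10 called lower. Choroid plexus markers were called higher in 3 of 4 tested, with sums of 5.88 to 17.8 and 8.42 to 61.6 FPKM, and astrocyte markers lower in 2 of 8, with sums of 230.0 to 263 and 226 to 317 FPKM. No oligodendrocyte, blood vessel, meningeal or erythroid marker was called. The part of these cell types in the members' values was not tested.

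**Figure D5:**
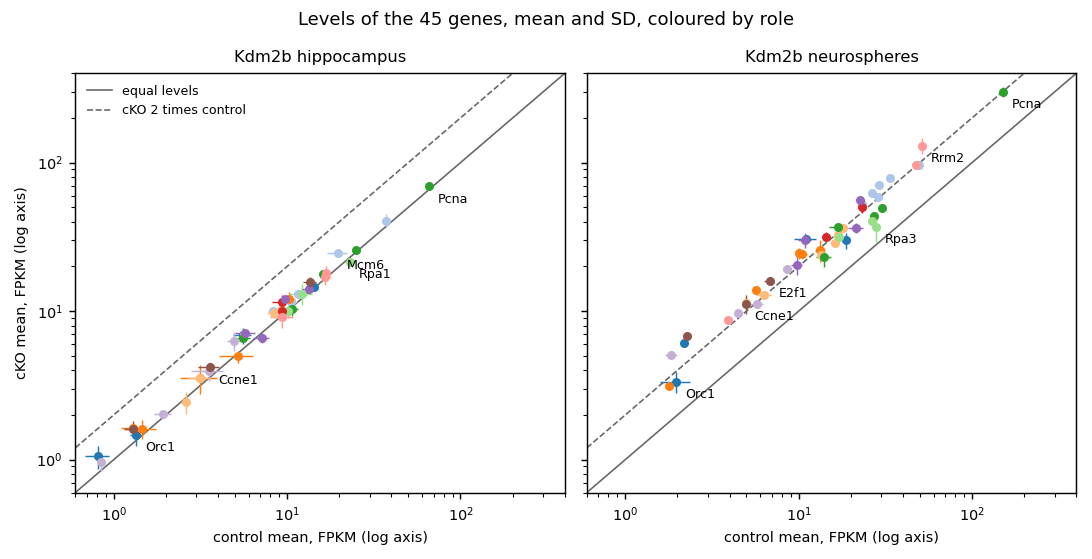
Each point is a member, placed by its mean FPKM in control (horizontal) and cKO (vertical) samples on log axes, with SD bars. Solid and dashed lines mark equal levels and cKO at 2 times control. Hippocampal points follow the solid line from *Cdc6* (0.815 FPKM in controls) to *Pcna* (65.6 FPKM), and neurosphere points follow the dashed line.

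The change differed between neurospheres and hippocampi for 42 of 45 members at an adjusted p under 0.05 in a test of genotype by table (26.9% of 11849 genes), and each of the 42 had the larger change in neurospheres. The median difference over all 45 was 0.89 on the log2 scale. *Rrm2* differed most among the genes followed here (1.29 ± 0.15, adjusted p = 0.000157), and *Mcm2* by 1.04 ± 0.088 (adjusted p = 2.5e-05). *Mcm7* and *E2f1* in hippocampi, and *Pcna* and *Rrm1* in neurospheres, were read from entries that also name another gene. For those members the test compares unlike entries. The members for which no difference was detected were *Gins3* (adjusted p = 0.0799), *Orc1* (adjusted p = 0.0869) and *Rpa3* (adjusted p = 0.342), the same 3 with the smallest changes in neurospheres on this scale. *Gins3* and *Orc1* are weakly expressed, and on the scale of log2(FPKM + 1) such genes appear to change less than they do. With a pseudocount of 0.1, a difference was again detected for 42 of 45 members. The part of expression level in these results was not tested. As a description over 45 genes, the order of changes in neurospheres and hippocampi had a Spearman rho of 0.59. Both tables were normalized separately, so levels cannot be compared firmly between them. With that limit, 42 of 45 members had a higher control level in neurospheres than in hippocampi, at a median ratio of 1.75, from 0.418 (*Tyms*) to 4.38 (*Mcm10*).

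In *Kdm2b* cKO cortices no member was called higher or lower (4.73% and 2.28% of 15691 genes), and 1 had an unadjusted p under 0.05 with no fold change threshold (7.72% of all genes were higher by that rule), and limma-voom on recovered reads also called none. That member, *Chaf1b*, had 4.31 and 4.39 FPKM in control and 5.33 and 5.64 FPKM in cKO cortices (0.28 ± 0.081, adjusted p = 0.271). *Chaf1b* did not pass with any 1 of the 4 libraries left out. The median change was 0.019, against -0.0053 over all genes. It turned to -0.018 with libraries rescaled to equal FPKM totals, where the median over all genes was -0.042, and to -0.034 without control 1. In 10 members both cKO values lay above both controls and in 4 below (22.0% and 22.8% of all genes). The summed level of the members was 430 and 441 FPKM in controls and 447 and 447 FPKM in cKO cortices.

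*Mcm2* had 7.82 and 7.74 FPKM in control and 9.73 and 7.53 FPKM in cKO cortices (0.12 ± 0.13). *Mcm5* had 11.2 and 13.0 against 12.9 and 11.5 FPKM (0.014 ± 0.10). Cortical control and cKO values of both MCM genes overlap. *Pcna* had 66.5 and 62.2 against 69.4 and 74.8 FPKM (0.16 ± 0.088), *Rrm2* 25.2 and 28.7 against 25.5 and 26.6 FPKM (-0.046 ± 0.091), and *E2f1* 7.64 and 7.53 against 6.57 and 7.90 FPKM (-0.065 ± 0.10). *Gins1* had 12.8 and 10.1 against 13.0 and 14.3 FPKM (0.24 ± 0.13), and *Ccne1* 1.99 and 2.42 against 2.51 and 3.03 FPKM (0.23 ± 0.13). For *Pcna*, *Gins1* and *Ccne1* both cKO values lie above both controls, without passing the test (adjusted p of 0.538, 0.522 and 0.535).

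At the low end of the cortical changes, *Orc1* had 1.20 and 1.22 FPKM in control and 1.01 and 0.953 FPKM in cKO cortices (-0.16 ± 0.12). *Pold1*, the catalytic subunit of polymerase delta, had 7.34 and 7.25 against 6.67 and 6.52 FPKM (-0.13 ± 0.074), and *Prim1*, the catalytic primase subunit, 10.7 and 9.97 against 9.68 and 9.55 FPKM (-0.093 ± 0.076). The cKO values of all 3 lie below the controls, and none passed the test (adjusted p of 0.634, 0.555 and 0.670). No gene of the 5 related lists was called. Meningeal markers differed between these libraries: 8 of 8 were called higher, with sums of 1.90 to 3.06 FPKM in controls and 29.1 to 43.6 FPKM in cKO cortices, and 3 of 5 erythroid markers tested were called higher. Called higher were also 3 of 8 blood vessel markers, with 1 lower, 2 of 7 microglia, 2 of 5 astrocyte, 1 of 8 oligodendrocyte lineage and 1 of 10 progenitor markers and the 1 choroid plexus marker tested. Their part in the members' values was not tested. The change differed from that in *Kdm2b* cKO hippocampi for none of 45 members at an adjusted p under 0.05 in limma (1.85% of 12163 genes), and for 5 at an unadjusted p under 0.05, *Pold1*, *Uhrf1*, *Prim1*, *Mcm6* and *Lig1*, each with the lower change in cortices. With 1 library left out, that unadjusted count was 2 to 8.

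*Rnf2* encodes the ubiquitin ligase shared by PRC1 complexes, to which KDM2B belongs in one variant form, and its deletion was compared in the same region. In *Rnf2* cKO hippocampi 44 members were tested, with none called higher and 1 lower (2.86% and 1.85% of 15764 genes), and no gene of the table passed the fold change threshold with an adjusted p under 0.05 (0.00% in either direction). *Fen1* was not tested, since it was listed at 0.0511 to 0.225 FPKM in all 4 libraries. The median change was -0.017, against -0.00024 over all genes, and 20 of 44 members were positive. Without control 2 or cKO 1 the median turned positive (0.022 and 0.042, with 26 positive), and without control 1 or cKO 2 it was -0.086 and -0.071, with 16 and 18 positive. In 4 members both cKO values lay above and in 8 below both controls (19.5% and 18.7% of all genes).

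*Rfc4* had 9.77 and 11.3 FPKM in control and 7.97 and 6.97 FPKM in *Rnf2* cKO hippocampi (-0.45 ± 0.13, adjusted p = 0.674). This call rests on few libraries: it was lost without control 2 (-0.35), without cKO 1 (-0.53) and without cKO 2 (-0.36). *Rpa3* had 6.24 and 8.20 against 5.91 and 4.13 FPKM (-0.45 ± 0.20), and *Ccne2* 4.15 and 4.41 against 2.42 and 4.08 FPKM (-0.34 ± 0.21). Cyclin E2 was called lower without cKO 2 (-0.62). *Chaf1a*, with 1.49 and 1.49 against 2.05 and 2.21 FPKM, had the highest change (0.33 ± 0.16, adjusted p = 0.727) and was called higher by limma-voom on reads recovered from the FPKM values (0.51). *Mcm7* had 15.6 and 21.2 against 19.5 and 23.8 FPKM (0.23 ± 0.18), and *Ung* 1.30 and 1.07 against 1.20 and 1.93 FPKM (0.22 ± 0.21). For *Mcm7* and *Ung* the groups overlap.

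The genes followed in every table gave no call after *Rnf2* deletion. *Mcm2* had 5.47 and 5.66 FPKM in control and 5.19 and 7.14 FPKM in cKO hippocampi (0.11 ± 0.17). *Mcm5* had 7.03 and 8.39 against 7.21 and 9.21 FPKM (0.077 ± 0.16). Control and cKO values overlap for both. *Pcna* had 46.0 and 40.3 against 39.6 and 42.8 FPKM (-0.064 ± 0.12), *Rrm2* 14.5 and 13.5 against 12.3 and 14.3 FPKM (-0.071 ± 0.12), and *Ccne1* 2.94 and 2.22 against 2.25 and 3.60 FPKM (0.12 ± 0.22). *E2f1* had 5.09 and 5.95 against 6.68 and 6.35 FPKM (0.21 ± 0.13, adjusted p = 0.762), with both cKO values above both controls. None of the genes of the 5 related lists was called. Meningeal markers were called lower in 5 of 8, with sums of 42.1 to 43.9 FPKM in controls and 20.4 to 29.2 FPKM in cKO hippocampi. Of other markers, 1 of 10 progenitor and 1 of 8 oligodendrocyte lineage markers were called higher and 1 of 5 erythroid markers lower, and their part in the members' values was not tested. The change differed from that in *Kdm2b* cKO hippocampi for none of 44 members at an adjusted p under 0.05 in limma (0.788% of 12685 genes) and for 7 at an unadjusted p under 0.05 (4 to 8 with 1 library left out), of which *Rfc4* had the lowest adjusted p (-0.64 ± 0.15, adjusted p = 0.0739).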

How the data were processed

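All measurements are FPKM values, used as the authors deposited them. For hippocampi and neurospheres, paired-end reads of poly(A)-selected RNA were trimmed (cutadapt), mapped to mm10 (STAR) and turned into FPKM by the authors with Cufflinks 2.2.1; how the cortical and *Rnf2* tables were made is not given in the sources used here. Those tables list gene lengths, and value times length is a whole multiple of 1 step per library (100% of values under 200 steps, within 0.02 of a step), which gave fragments per gene. The mapped fragments of each library are not known for the other tables.

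Entries naming no gene and 0 per-sample columns were dropped. On log2(FPKM + 1), with a minimum mean of 0.5 FPKM, each table was fitted by itself with lmFit and eBayes (trend) of limma 3.58.1 (R 4.3.3), and p values were adjusted by Benjamini-Hochberg over all genes of a fit. The genotype by table term tested differences between tables. Calls used the fold change and p thresholds of the study. The study applied them to read counts with DESeq2, so calls made here with limma on FPKM are not those of the study. Replicate numbers were not used as pairs in the main fit, and the labels do not say whether they pair the samples. Members and lists were chosen with earlier results of these data known. Values per library are given for *Mcm2*, *Mcm5*, *Pcna*, *Rrm2*, *E2f1*, *Ccne1* and the 3 highest and 3 lowest changes of each comparison, and up to 4 called genes of each related list are named in order of p, except where a gene is not reported here. Printed promoters are the 3 with most E2F matches and 2 without, ties in order of symbol; sequences are from RefSeq. The fits were tried on simulated data with large planted changes only, which does not measure their power for small changes. Alternatives were a pseudocount of 0.1, no filter, at least 1 FPKM, rescaling to equal totals, median-ratio scaling, no trend, a replicate block, summed entries, adjusted p, no fold change threshold, limma-voom on recovered fragments, and each library left out, where a lone library is assumed to vary like the other group.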

Additional observations from a re-analysis of the deposited data

Results flagged for a closer look

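The members' changes differed between 2 settings of the same *Kdm2b* deletion, by the test of genotype by table. The change was larger in *Kdm2b* cKO neurospheres than in *Kdm2b* cKO hippocampi for 42 of 45 members at an adjusted p under 0.05 in limma. Of all 11849 genes tested, 26.9% differed in either direction. For the genes followed in every table, the difference, neurospheres minus hippocampi on the log2 scale, was 1.04 for *Mcm2*, 1.01 for *Mcm5*, 0.91 for *Pcna*, 1.29 for *Rrm2*, 0.92 for *E2f1* and 0.84 for *Ccne1*. Both cKO neurosphere libraries lay above both controls for each of these genes. The *Pcna* entry also names *Tmem230* in neurospheres, and the *E2f1* entry also names *Necab3* in hippocampi. Their differences therefore compare unlike entries. Groups of 2 or 3 libraries are too small for a test of single outlying libraries.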

How the results depend on the processing

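The count of 44 of 45 members higher in *Kdm2b* cKO neurospheres ranged from 43 to 45 over all alternatives, and their median was 1.08 with a pseudocount of 0.1, 1.12 with equal FPKM totals and 0.99 to 1.06 with 1 library left out. Rescaling to equal totals shifted the median of all genes by 0.11 there, and relative to it the members' median was 1.03. In *Kdm2b* cKO hippocampi 12 members were higher with no fold change threshold, 5 to 15 by that rule with a library left out and 9 with the replicate block, where *Uhrf1* had an adjusted p of 0.083. With the threshold the count was 0 to 1 with a library left out. In cortices 1 was higher with no fold change threshold, and the median was -0.034 to 0.058 with a library left out. With equal totals it was -0.018, and *Mcm5* turned to -0.027. That rescaling shifted the median of all genes in cortices by -0.036, and relative to it the members' median was 0.023. In *Rnf2* cKO hippocampi 1 was higher by limma-voom (which called 402 genes higher and 354 lower there, and 1047 and 412 in cortices), and 0 were lower with adjusted p or 0 to 1 with a library left out; the median ranged from -0.086 to 0.042 with a library left out; its difference from *Kdm2b* cKO hippocampi held for 0 to 1 members. The cause of these moves was not tested. Uncalled changes whose sign turned with a library left out ranged, in *Kdm2b* cKO hippocampi, from -0.028 to 0.13 (*Rrm2*) and -0.15 to 0.018 (*Pola1*), in cortices from -0.041 to 0.29 (*Mcm2*), -0.085 to 0.11 (*Mcm5*), -0.14 to 0.044 (*Rrm2*) and -0.18 to 0.052 (*E2f1*), and in *Rnf2* cKO hippocampi from -0.086 to 0.31 (*Mcm2*), -0.080 to 0.23 (*Mcm5*), -0.16 to 0.029 (*Pcna*), -0.17 to 0.030 (*Rrm2*) and -0.13 to 0.37 (*Ccne1*). With the replicate number as a block, 44 members were called higher in neurospheres, 0 in the other tables, and 1 lower in *Rnf2* cKO hippocampi. The difference from hippocampi then held for 42, 0 and 0 members, and for 2492 of 11849, 122 of 12163 and 63 of 12685 genes. Deviations of same-numbered libraries had correlations of -0.28 to 0.16. Where a group has 2 libraries, that correlation has the same size for every pairing, so it cannot decide whether the numbers pair the samples. With 2 libraries a group, only large changes could be detected.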

Other observations

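Genes outside the members that hold an E2F octamer in their promoter window were counted in *Kdm2b* cKO neurospheres. Of 402 such genes tested, 81 were higher (20.1%) and 33 lower (8.21%). Of 9232 genes without a match, 966 were higher (10.5%) and 1228 lower (13.3%). This is a description after the values were seen, with no test.

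*Fen1* was the member whose level differed most between tables. Its control mean was 9.31 FPKM in *Kdm2b* hippocampi, 14.3 FPKM in neurospheres, 1.09 FPKM in cortices and 0.0679 FPKM in *Rnf2* hippocampi. The first 2 tables were made with Cufflinks and the others carry gene lengths, and the tables were normalized separately. The ratio of its control means between the *Kdm2b* and *Rnf2* hippocampal tables was 137, against a median of 1.65 over the members.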
